A study of Mus musculus with 3 samples.

Results

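The genes described here are 10 mouse genes of the cytotoxic program of T cells and natural killer (NK) cells, out of 23283 genes or groups of genes in each deposited table. They were chosen by name, with earlier results of these data known. Gzma, Gzmb, Gzmk, Prf1, Nkg7 and Ctsw stand for cytotoxic granules, and Klrd1, Klrk1, Klrc1 and Klrg1 for receptors of the killer cell lectin-like family. Each name matched a single row in both tables. They were measured by RNA sequencing in CD4+ T cells stained by 2W:I-A(b), a peptide-MHC class II complex that marks T cells specific for the immunizing peptide. C57BL/6 mice received 2W1S peptide in the footpads with LPS, a bacterial Toll-like receptor ligand, in the oil adjuvant IFA, and on day 7 the cells were sorted from lymph nodes (popliteal and inguinal). The 3 groups were MyD88 T-KO (labelled Myd88 -/-, with the series title naming a deletion in T cells), IL6ra T-KO (labelled Il-6 receptor a chain -/-, likewise) and WT (wild-type), each with 1 library. The labels used here name no Cre driver and no age. Cells of 15 to 30 mice per genotype, from 4 experiments, went into each library, so no spread between mice can be measured and no test between genotypes was possible.

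Cytotoxic lymphocytes kill by releasing granules. Perforin, encoded by Prf1, opens the membrane of the target cell, and granzymes, serine proteases encoded by the Gzm genes, enter and cleave proteins there. CD4+ T cells of the helper type usually carry little of this program, although subsets of Th1 and regulatory cells express parts of it. The Klr genes encode receptors first known from NK cells. CD94, encoded by Klrd1, pairs with NKG2A, encoded by Klrc1, into an inhibitory receptor for the MHC class Ib molecule Qa-1, whereas NKG2D, encoded by Klrk1, is an activating receptor for stress-induced ligands. KLRG1 is an inhibitory receptor for cadherins and marks terminally differentiated effector cells and some regulatory T cells.

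The 10 genes all lay above WT in the library labelled IL6ra T-KO, in FPKM (a count of fragments corrected for the length of the transcript and for the depth of the library), by amounts that ranged from no measurable difference for Gzma to 5.22-fold for Klrd1. The 4 receptor genes and the granule genes Nkg7 and Ctsw showed the larger differences, at 2.49-fold to 5.22-fold. In the MyD88 T-KO library Gzmb, Gzmk and, by less, Nkg7 (0.82-fold) lay below WT, and Ctsw and Klrd1 above it. Gzma, Prf1, Klrc1 and Klrg1 lay within 1.18-fold of WT. None of the 10 was marked significant in MyD88 T-KO in the authors' deposited table. Of 11164 genes tested, 0.394% were marked higher and 0.484% lower there, so this absence of marks says little. Klrk1, which the authors did not test in MyD88 T-KO, was below 1 FPKM in both libraries of that comparison. In bulk RNA, fewer cells that express a gene and less RNA per cell cannot be told apart.

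Depth, estimated from the steps that single fragments leave in the FPKM of low genes, was near 21.2 M fragments in the MyD88 T-KO library against 22.2 M in WT of the same table, and near 24.0 M in the IL6ra T-KO library against 21.8 M in WT of the same table. WT is the same library in both tables, so these estimates include the authors' scaling and are no exact depths. WT values are given in both tables, scaled 1.02 times higher in the second, so knockout and WT values were compared within a table. Cd4, which defines the labelled cell type, was at 462 FPKM in MyD88 T-KO against 415 FPKM in WT, and at 445 FPKM in IL6ra T-KO against 425 FPKM in WT. Of 7 T cell markers, 6 lay above WT in MyD88 T-KO (median log2 ratio 0.04), whereas in IL6ra T-KO Cd4 alone did and the other 6 lay below it (median -0.16). Myd88 was at 19.5 FPKM in MyD88 T-KO against 49.8 FPKM in WT, a fold of 0.392. The IL6ra T-KO library held Myd88 at 34.2 FPKM against 51.0 FPKM in WT, a fold of 0.67 that the authors' deposited table did not mark (q-value 0.793). Il6ra was in the library labelled IL6ra T-KO at 65.1 FPKM against 57.1 FPKM in WT, so the whole-gene value did not check that label. Directions in that comparison therefore belong to the library labelled IL6ra T-KO and are no statement on its genotype.

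Ratios below are log2((knockout FPKM + 1)/(WT FPKM + 1)), where the added 1 FPKM understates the difference of low genes. The implied SE beside them is the standard error that the authors' fold change and test statistic imply for the ratio without the added FPKM. It comes from the authors' model and not from replicates. Folds are plain ratios of FPKM, and their 95% counting intervals come from estimated fragment numbers, for the shortest annotated transcript, and cover counting error only.

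Gzmb, which encodes the granzyme that cleaves after aspartate and activates caspases, was the most abundant of the 3 granzymes. It lies on chromosome 14, from 56258858 to 56262260 in mm10. It was at 32.2 FPKM in MyD88 T-KO against 47.6 FPKM in WT, with a log2 ratio of -0.55 (implied SE 0.17). Its level was 65.0 FPKM in the library with the label IL6ra T-KO, against 48.8 FPKM in WT, with a log2 ratio of 0.41 (implied SE 0.28). The knockout libraries thus lay on either side of WT. In the authors' deposited table neither was marked significant, with q-values of 0.106 for MyD88 T-KO and 1.000 for IL6ra T-KO. The comparisons share the WT library, and the knockouts were not tested against each other.

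Gzmk and Gzma encode tryptase-like granzymes and are neighbours on chromosome 13, with 70.9 kb between them. Gzmk (113171874 to 113180897) was at 3.99 FPKM in MyD88 T-KO against 6.68 FPKM in WT, with a log2 ratio of -0.62 (implied SE 0.38). In the library labelled IL6ra T-KO it was at 12.9 FPKM, against 6.84 FPKM in WT, with a log2 ratio of 0.83 (implied SE 0.52). Gzmk thus had the same signs as Gzmb, and the authors' deposited tables marked neither of its differences. Gzma (113093827 to 113100981) hardly differed in FPKM, at 1.91 in MyD88 T-KO against 1.85 in WT and at 1.92 in IL6ra T-KO against 1.90 in WT. Its counting intervals for the fold, 0.621 to 1.67 for MyD88 T-KO and 0.628 to 1.63 for IL6ra T-KO, rest on about 35 to 40 fragments in the knockouts and about 36 in WT. A difference within these bounds was not detectable at this depth.

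Prf1 (chromosome 10, 61297836 to 61304263), the perforin gene, was low in all 3 libraries. It was at 2.28 FPKM in MyD88 T-KO against 2.04 FPKM in WT, with a log2 ratio of 0.11 (implied SE 0.35). The library labelled IL6ra T-KO held it at 3.47 FPKM, against 2.09 FPKM in WT, with a log2 ratio of 0.54 (implied SE 0.54). Without the added FPKM the second ratio was 0.74, larger than its implied SE.

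Nkg7 (chromosome 7, 43437138 to 43438246) encodes a membrane protein of cytotoxic granules that takes part in their release. It was at 20.3 FPKM in MyD88 T-KO against 24.7 FPKM in WT, with a log2 ratio of -0.27 (implied SE 0.25). Its level was 71.0 FPKM in the library with the label IL6ra T-KO, against 25.3 FPKM in WT, with a log2 ratio of 1.45 (implied SE 0.36) and a 2.80-fold difference with a counting interval of 2.49 to 3.16. The authors' deposited table marked it as significant for IL6ra T-KO, with a q-value of 0.00791, which compares library with library. It was not marked for MyD88 T-KO.

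Ctsw (chromosome 19, 5465240 to 5468498) encodes cathepsin W, a cysteine protease found mainly in cytotoxic lymphocytes. It was at 6.82 FPKM in MyD88 T-KO against 3.77 FPKM in WT, with a log2 ratio of 0.71 (implied SE 0.32). In the library labelled IL6ra T-KO it was at 13.3 FPKM, against 3.86 FPKM in WT, with a log2 ratio of 1.55 (implied SE 0.48). Ctsw thus lay above WT in both knockout libraries. The authors' deposited table gave it a q-value of 0.0283 and marked it for IL6ra T-KO, and a q-value of 0.384 without a mark for MyD88 T-KO.

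Of the receptor genes, Klrd1, Klrk1 and Klrc1 lie together in the NK gene complex of chromosome 6, with 76.1 kb between Klrd1 and Klrc1. Klrd1 (129591811 to 129598775) was at 4.20 FPKM in MyD88 T-KO against 1.41 FPKM in WT, with a log2 ratio of 1.11 (implied SE 0.53). The library labelled IL6ra T-KO held it at 7.54 FPKM, against 1.44 FPKM in WT, with a log2 ratio of 1.80 (implied SE 0.70). Klrd1 thus lay above WT in both knockouts, and the WT value rests on about 18 fragments in either table. The counting interval of its fold was 1.74 to 5.49 in MyD88 T-KO and 3.23 to 9.39 in IL6ra T-KO. In the authors' deposited table its q-values were 0.215 for MyD88 T-KO and 0.0665 for IL6ra T-KO, and neither was marked.

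Klrc1 (129674859 to 129678910), whose product NKG2A pairs with CD94, was at 2.97 FPKM in MyD88 T-KO against 3.02 FPKM in WT, with a log2 ratio of -0.02 (implied SE 0.51). Its level was 9.47 FPKM in the library with the label IL6ra T-KO, against 3.10 FPKM in WT, with a log2 ratio of 1.35 (implied SE 0.69). The partner genes Klrd1 and Klrc1 were thus both above WT in the library labelled IL6ra T-KO, whereas in MyD88 T-KO Klrd1 differed and Klrc1 stood at the WT level. Klrc1 shares close sequence with its neighbours Klrc2 and Klrc3, so its reads may be divided among them. Klrc2, the gene of the activating relative NKG2C, was listed at 0 FPKM in MyD88 T-KO against 0.158 FPKM in WT, and at 0.822 FPKM in IL6ra T-KO against 0.161 FPKM in WT.

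Klrk1 (129610321 to 129623841), the NKG2D gene, was the lowest of the 10 in all libraries. It was at 0.408 FPKM in MyD88 T-KO against 0.191 FPKM in WT, about 9 against 4 fragments, and the authors did not test it. In the library labelled IL6ra T-KO it was at 0.999 FPKM, against 0.195 FPKM in WT, about 24 against 4 fragments, a 5.11-fold difference with a counting interval of 1.88 to 21.7. Its log2 ratio of 0.74 there is held down by the added 1 FPKM.

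Klrg1 lies apart from the other receptor genes on chromosome 6, from 122270597 to 122282833. It was at 6.11 FPKM in MyD88 T-KO against 5.17 FPKM in WT, with a log2 ratio of 0.20 (implied SE 0.32). The library labelled IL6ra T-KO held it at 13.2 FPKM, against 5.30 FPKM in WT, with a log2 ratio of 1.17 (implied SE 0.47), or 2.49-fold with a counting interval of 2.07 to 2.99. The first difference was smaller than its implied SE and the second larger.

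**Figure D1:**
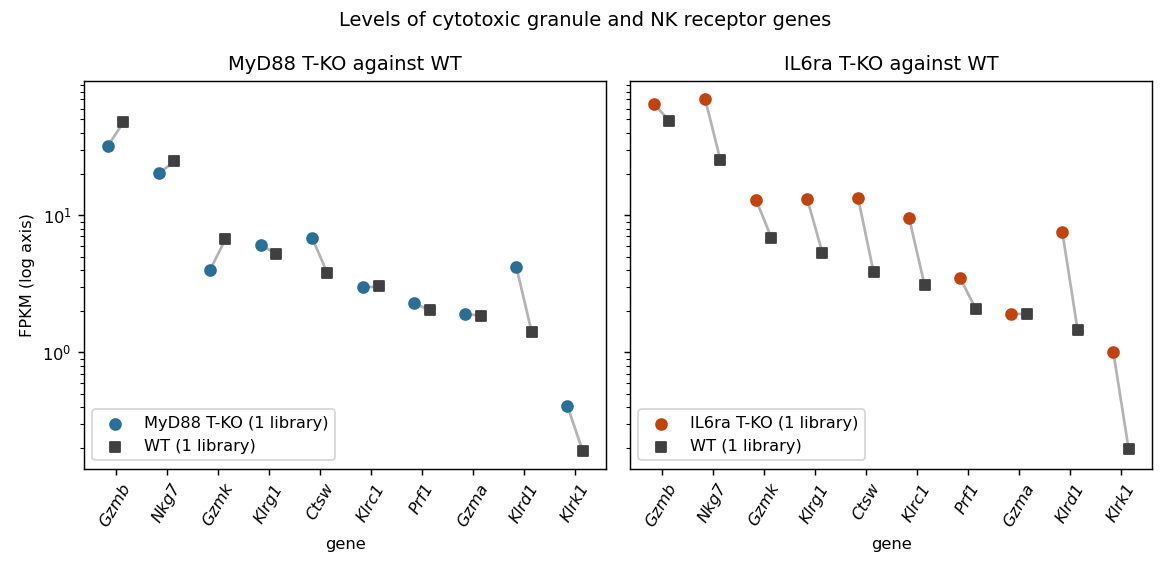
FPKM of the 10 genes on a log axis, knockout library (circles) left of the WT library (squares) of the same table, genes ordered by the WT level; each point is 1 library. In the panel of IL6ra T-KO the circle of Gzma is about level with its square and the others lie above theirs. The step is small for Gzmb, at 65.0 against 48.8 FPKM, and larger for Nkg7, at 71.0 against 25.3 FPKM. In the panel of MyD88 T-KO the circles of Gzmb and Gzmk lie below and those of Ctsw and Klrd1 above.

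**Figure D2:**
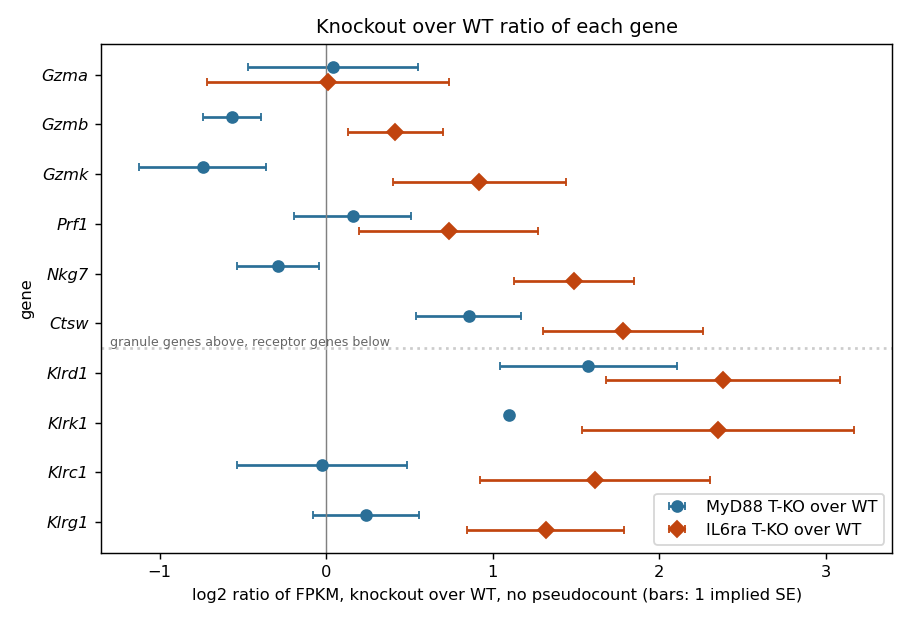
Log2 ratio of FPKM in the authors' deposited tables, turned to knockout over WT, without an added FPKM; bars are 1 implied SE, which Klrk1 in MyD88 T-KO lacks because the authors did not test it. The IL6ra T-KO points run from 0.01 for Gzma to 2.38 for Klrd1, and the MyD88 T-KO points from -0.74 for Gzmk to 1.57 for Klrd1.

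The size rule used for counting asked for a log2 ratio of 1 or more, or -1 or less, and for 5 FPKM or more in 1 of the libraries compared. By this rule 5 of the 10 genes (Nkg7, Ctsw, Klrd1, Klrc1 and Klrg1) were higher in the IL6ra T-KO library, where 0.951% of the 8100 genes past the FPKM minimum were higher. None of the 10 was lower there, against 0.741% of all genes. The 10 were chosen with earlier results of these data known. An excess over the share of all genes is therefore no test, here or below. Of the 5, Ctsw, Klrd1 and Klrc1 passed the minimum through the knockout library alone. Without any minimum the count was 5 as well, with no share of all genes computed for that setting. With 5 FPKM added in place of 1, the count was 2 (Nkg7 and Ctsw), and Klrd1, Klrc1 and Klrg1 had log2 ratios of 0.96, 0.84 and 0.82. In MyD88 T-KO 0 of the 10 were higher and 0 lower, against 0.189% higher and 0.24% lower of 7933 genes. Only genes past the FPKM minimum could be counted, and 5 of the 10 reached it in MyD88 T-KO and 7 in IL6ra T-KO. With 5 genes and shares this small, a count of 0 says little. Klrd1 passed the ratio in MyD88 T-KO but not the FPKM minimum. The authors' deposited tables marked 2 of the 10, Nkg7 and Ctsw, as higher in IL6ra T-KO, against 0.502% of 11356 genes tested, and 0 in either direction in MyD88 T-KO, against 0.394% higher and 0.484% lower of 11164 genes.

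All 10 ratios lay above 0 in the library labelled IL6ra T-KO, where 43.1% of 10502 genes with at least 1 FPKM in 1 library did, and 6 of 10 in MyD88 T-KO, where 54.2% of 10345 did. The median ratio of the 10 was 1.00 in IL6ra T-KO, beside -0.04 over all those genes, and 0.07 in MyD88 T-KO, beside 0.01. Klrk1 was below 1 FPKM in every library and so is not in that set of genes. Without Klrk1, 9 of 9 lay above 0 in IL6ra T-KO (median 1.17) and 5 of 9 in MyD88 T-KO (median 0.03). Within IL6ra T-KO the 4 receptor genes had a median of 1.26 and the 6 granule genes 0.68. Within MyD88 T-KO the receptor genes had a median of 0.22 and the granule genes -0.12. The summed FPKM of the granule genes was 67.4 in MyD88 T-KO against 86.7 in WT, and 168 in IL6ra T-KO against 88.8 in WT. That of the receptor genes was 13.7 in MyD88 T-KO against 9.80 in WT, and 31.2 in IL6ra T-KO against 10.04 in WT, a 3.11-fold difference.

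**Figure D3:**
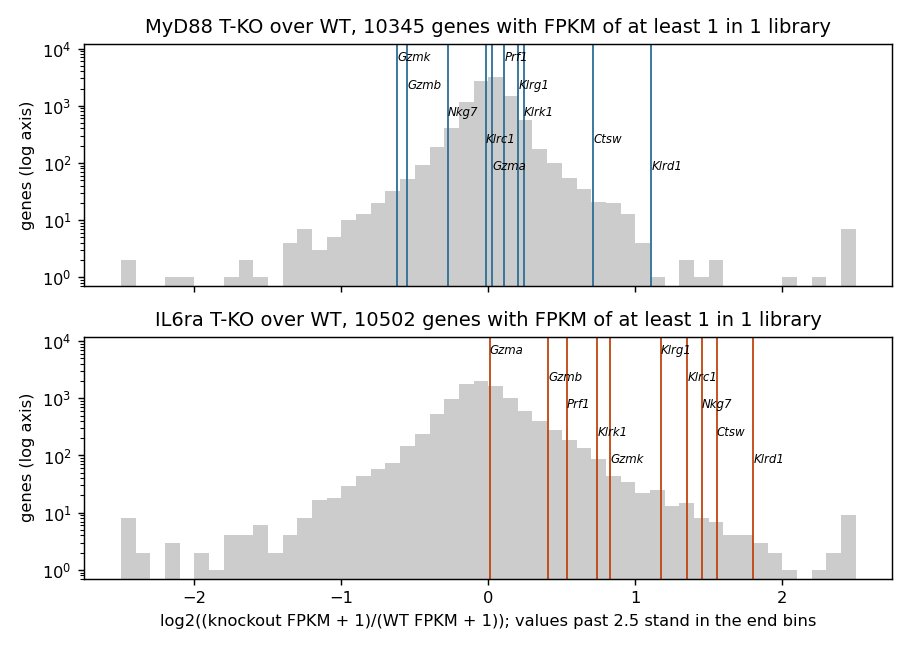
Histograms of the log2 ratio (with 1 FPKM added) over all genes with at least 1 FPKM in 1 library, on a log count axis, with a line at each of the 10 genes. In IL6ra T-KO the lines run from 0.01 for Gzma to 1.80 for Klrd1, all right of 0, and in MyD88 T-KO they lie on both sides, from -0.62 for Gzmk to 1.11 for Klrd1.

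The order of levels also differed between libraries. In MyD88 T-KO Gzmb made up 39.6% of the summed FPKM of the 10 genes and Nkg7 25.0%, and in the library labelled IL6ra T-KO Nkg7 stood first with 35.7% ahead of Gzmb with 32.7%. In WT Gzmb stood first with 49.3% and Nkg7 next with 25.6%. By level, Klrd1 took place 5 of 10 in MyD88 T-KO, place 7 in IL6ra T-KO and place 9 in WT. With 1 library a group, whether neighbours in this order differ beyond the spread between mice was not tested. Among genes with at least 1 FPKM, Gzmb lay above 77.3% in MyD88 T-KO and 90.8% in IL6ra T-KO, against 85.4% in WT of either table. Gzma lay above 7.18% in MyD88 T-KO against 7.09% in WT, and above 7.21% in IL6ra T-KO against 7.28% in WT.

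The sequences before the starts of transcription are shown for 4 of the 7 genes with a RefSeq start, as examples of the patterns seen here: Nkg7 and Klrc1, which lay above WT in the library labelled IL6ra T-KO, Gzmb, whose ratios had opposite signs in the knockouts, and Gzma, which hardly differed. They are the 250 bases before the start in RefSeq on GRCm38.p6, read 5′ to 3′ on the strand of the gene. Capitals mark matches to the letters TCACAC (T-box core), TGTGGT or TGCGGT (Runx) and TTCNNNGAA (STAT), searched on both strands, and no matches overlap. T-box factors such as T-bet and Eomes, and Runx3, are known regulators of cytotoxic genes, and STAT3 carries the IL-6 signal.
Nkg7 (chr7:43436888-43437137, + strand): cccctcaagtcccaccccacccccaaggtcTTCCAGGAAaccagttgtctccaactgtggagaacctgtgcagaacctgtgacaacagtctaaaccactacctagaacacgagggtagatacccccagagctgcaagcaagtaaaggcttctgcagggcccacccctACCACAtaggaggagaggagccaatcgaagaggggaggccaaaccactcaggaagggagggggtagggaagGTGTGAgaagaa
Klrc1 (chr6:129678974-129679223, - strand): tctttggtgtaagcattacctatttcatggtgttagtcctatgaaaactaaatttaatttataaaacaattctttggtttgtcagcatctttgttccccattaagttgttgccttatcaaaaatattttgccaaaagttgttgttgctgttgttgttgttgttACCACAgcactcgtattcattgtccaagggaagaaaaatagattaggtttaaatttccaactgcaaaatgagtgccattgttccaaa
Gzmb (chr14:56262335-56262584, - strand): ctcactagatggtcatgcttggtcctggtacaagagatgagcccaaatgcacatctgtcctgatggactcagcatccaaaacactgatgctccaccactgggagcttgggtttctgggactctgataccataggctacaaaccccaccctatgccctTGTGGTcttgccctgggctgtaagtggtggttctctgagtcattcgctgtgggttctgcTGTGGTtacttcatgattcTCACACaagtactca
Gzma (chr13:113100982-113101231, - strand): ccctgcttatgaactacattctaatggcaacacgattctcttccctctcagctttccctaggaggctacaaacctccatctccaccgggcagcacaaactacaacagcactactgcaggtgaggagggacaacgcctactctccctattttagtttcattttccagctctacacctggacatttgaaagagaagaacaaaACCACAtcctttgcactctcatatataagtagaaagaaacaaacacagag
RefSeq starts were matched for 7 of the 10 genes. The Runx letters TGTGGT stood in 6 of these 7 promoters (Gzma, Gzmb, Klrc1, Klrk1, Nkg7 and Prf1), beside 14.0% of 32851 RefSeq promoters of the same length, and TGCGGT in 0 of 7, beside 5.1%. The T-box letters stood in 3 of 7 (Gzmb, Gzmk and Nkg7), beside 12.3%, and the STAT letters in 1 of 7 (Nkg7, 220 to 212 bases before the start), beside 7.02%. The promoter of Gzma held the Runx letters 50 to 45 bases before the start. A match describes the letters and no binding was measured.

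Other genes of granule biology were taken from lists of related genes. Of 7 other granzyme genes, none reached 1 FPKM in any library; Gzmc was at 0.691 FPKM in MyD88 T-KO against 0.806 FPKM in WT and at 0.534 FPKM in IL6ra T-KO against 0.826 FPKM in WT, and Gzmd, Gzme, Gzmg and Gzmn were listed at 0 in all 3. Of 13 genes of granule storage, processing and release, 12 reached 1 FPKM and Vamp7 was listed at 0 in all 3 libraries. The Vamp7 row lies on the scaffold X_GL456233_random and was not tested by the authors. Whether its 0 reflects absent RNA was not tested here either. None of the 12 passed the size rule in either comparison. Of all genes past the minimum, 0.189% were higher and 0.24% lower in MyD88 T-KO. In IL6ra T-KO these shares were 0.951% and 0.741%. With shares this small, a count of 0 among 12 genes says little. Srgn, which encodes the proteoglycan serglycin that packs granzymes, was at 1085 FPKM in MyD88 T-KO against 1212 FPKM in WT, and in the library labelled IL6ra T-KO at 836 FPKM against 1242 FPKM in WT, with a log2 ratio of -0.57 (implied SE 0.31). The median ratio of the 12 measured genes of this list was 0.02 in MyD88 T-KO and -0.10 in IL6ra T-KO, beside 0.01 and -0.04 over all genes.

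Granzyme inhibitors protect the cell that carries the protease. Serpinb9, the inhibitor of granzyme B, was at 6.34 FPKM in MyD88 T-KO against 5.02 FPKM in WT, and in the library labelled IL6ra T-KO at 10.1 FPKM against 5.15 FPKM in WT, with log2 ratios of 0.28 and 0.85. Serpinb6b was at 14.0 FPKM in MyD88 T-KO against 15.3 FPKM in WT, and at 26.3 FPKM in IL6ra T-KO against 15.7 FPKM in WT. Serpinb6a was at 12.2 FPKM in MyD88 T-KO against 11.5 FPKM in WT, and at 11.8 FPKM in both IL6ra T-KO and WT. None of the 3 passed the size rule, which says little beside the small shares of all genes given above. The death ligand genes Fasl and Tnfsf10 had log2 ratios of -0.35 and 0.04 in MyD88 T-KO and of 0.79 and 0.62 in IL6ra T-KO, also short of the size rule.

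The most abundant genes of NK receptor partners lay nearer to WT than the receptor genes did in the library labelled IL6ra T-KO. Hcst, which encodes the adaptor DAP10 through which NKG2D signals, was at 132 FPKM in MyD88 T-KO against 148 FPKM in WT, and in the library labelled IL6ra T-KO at 114 FPKM against 152 FPKM in WT, with log2 ratios of -0.17 and -0.41. B2m, the gene of the light chain of MHC class I molecules, was at 1815 FPKM in MyD88 T-KO against 2073 FPKM in WT, and at 2189 FPKM in IL6ra T-KO against 2124 FPKM in WT. H2-T23, the Qa-1 gene and so the ligand gene of CD94 with NKG2A, was at 127 FPKM in MyD88 T-KO against 118 FPKM in WT, and at 142 FPKM in IL6ra T-KO against 121 FPKM in WT. Of 22 other Klr receptor genes in the tables, 2 reached 1 FPKM: Klrb1c, the NK1.1 gene, at 5.46 FPKM in MyD88 T-KO against 5.64 FPKM in WT and at 3.98 FPKM in IL6ra T-KO against 5.77 FPKM in WT, and Klrb1f, with log2 ratios of -0.22 and -0.55. In MyD88 T-KO the differences of Klrb1c and Klrb1f were smaller than their implied SE of 0.27 and 0.45. Both lay below WT in IL6ra T-KO (implied SE 0.47 and 0.71), where Klrd1 lay above it. The authors' deposited tables marked neither gene. Of 7 other receptors of cytotoxic cells, 3 reached the FPKM minimum in each comparison. None of these passed the size rule, which says little beside the small shares of all genes. Of the 5 that reached 1 FPKM, 2 lay above WT in MyD88 T-KO and 4 in IL6ra T-KO. The most abundant were Cd7, Cd226 and Cd160. Cd7 was at 9.01 FPKM in MyD88 T-KO against 9.07 FPKM in WT and at 15.1 FPKM in IL6ra T-KO against 9.29 FPKM in WT. Cd226, the gene of the activating receptor DNAM-1, was at 5.99 FPKM in MyD88 T-KO against 7.25 FPKM in WT and at 14.7 FPKM in IL6ra T-KO against 7.43 FPKM in WT. Cd160 lay on the other side of WT, at 12.2 FPKM in MyD88 T-KO against 11.1 FPKM in WT and at 9.14 FPKM in IL6ra T-KO against 11.4 FPKM in WT.

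Among 19 regulators of the cytotoxic program, Tbx21, which encodes T-bet, passed the size rule, in the library labelled IL6ra T-KO at 10.3 FPKM against 3.96 FPKM in WT. This is 1 of the 15 regulators past the minimum there, beside 0.951% of all genes past it. Tbx21 passed the minimum through the knockout library alone. In MyD88 T-KO none of the 12 regulators past the minimum passed the size rule, beside 0.189% higher and 0.24% lower of all genes. Of 11164 genes tested by the authors, 0.484% were marked lower in MyD88 T-KO. The authors' deposited table marked Id2 and Nfil3 as lower in MyD88 T-KO, with log2 ratios of -0.74 and -0.66 and q-values of 0.00274 and 0.00800. The most abundant regulators were Tcf7, which encodes a factor of naive and memory T cells, at 764 FPKM in MyD88 T-KO against 752 FPKM in WT and at 465 FPKM in IL6ra T-KO against 771 FPKM in WT, and Il2rb, a receptor chain for IL-2 and IL-15, with log2 ratios of 0.02 and 0.37. Eomes, also an NK cell marker, was at 2.67 FPKM in MyD88 T-KO against 2.53 FPKM in WT, and at 5.13 FPKM in IL6ra T-KO against 2.60 FPKM in WT. The whole list had a median ratio of -0.06 in MyD88 T-KO, with 12 of 19 below 0, and of 0.15 in IL6ra T-KO, with 15 of 19 above 0. Of 9 effector genes often expressed beside granzymes, Ifng, Ccl3 and Ccl4 were higher by the size rule in IL6ra T-KO, beside 0.951% of all genes, and Ccl5 was lower in MyD88 T-KO, beside 0.24%. The FPKM minimum was reached by 7 of the 9 in IL6ra T-KO and by 4 in MyD88 T-KO. Ccl3 and Ccl4 passed it through the knockout library alone. The median of this list over measured genes was -0.28 in MyD88 T-KO (7 genes) and 0.73 in IL6ra T-KO (8 genes). In MyD88 T-KO 6 of the 7 measured genes lay below WT. Ifng was at 6.07 FPKM in MyD88 T-KO against 12.2 FPKM in WT, and at 27.7 FPKM in IL6ra T-KO against 12.5 FPKM in WT. Ccl5 was at 19.1 FPKM in MyD88 T-KO against 47.8 FPKM in WT, and at 78.6 FPKM in IL6ra T-KO against 48.9 FPKM in WT. Ccl3, the 1 measured gene above WT in MyD88 T-KO, was at 1.54 FPKM there against 1.36 FPKM in WT, and at 5.65 FPKM in IL6ra T-KO against 1.40 FPKM in WT.

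**Figure D4:**
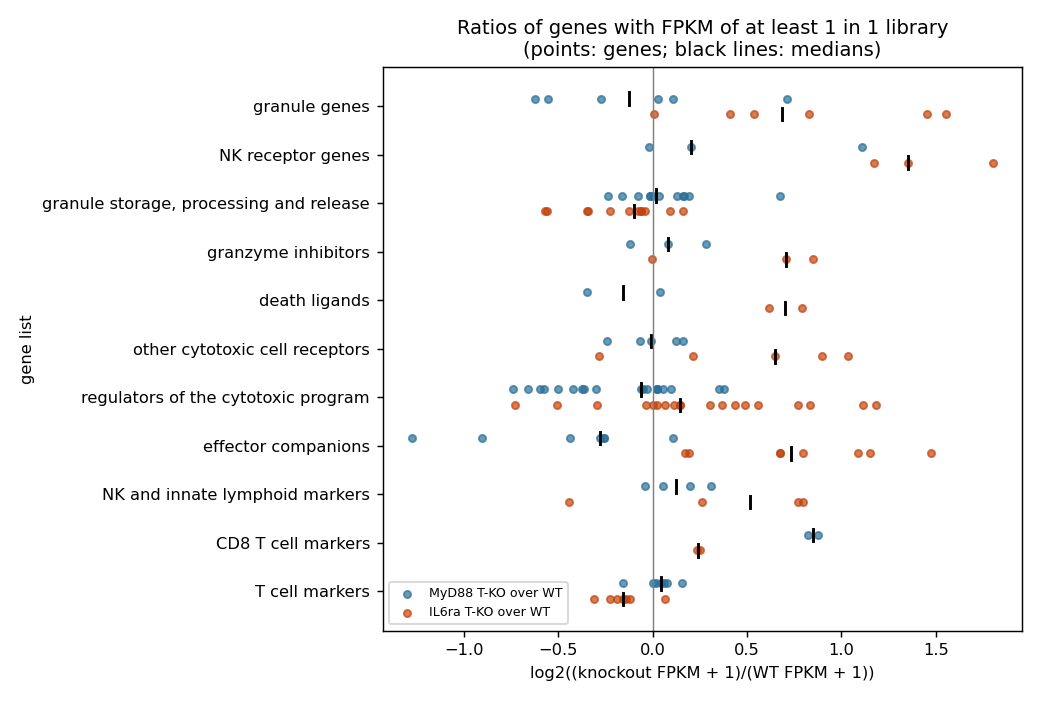
Log2 ratios (with 1 FPKM added) of genes with at least 1 FPKM in 1 library, by gene list, MyD88 T-KO over WT above IL6ra T-KO over WT in each row; black lines are medians. In IL6ra T-KO the medians of granule genes (0.68) and receptor genes (1.35, without Klrk1) lie right of 0 and that of storage and release genes (-0.10) left of it, and in MyD88 T-KO the CD8 T cell markers (0.85) lie farthest right of the lists drawn, which leave out B cell markers (0.86).

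Other cell types that carry these genes were read from their markers. Of 10 NK and innate lymphoid markers, summed FPKM was 14.3 in MyD88 T-KO against 12.5 in WT and 16.5 in IL6ra T-KO against 12.8 in WT, and 4 reached 1 FPKM in each comparison. The defining NK gene Ncr1 was at 0.233 FPKM in MyD88 T-KO against 0.157 FPKM in WT and at 0.0910 FPKM in IL6ra T-KO against 0.161 FPKM in WT. Klra4 was listed at 0 in all 3 libraries and Klra8 at 0 in IL6ra T-KO and WT. The 4 markers that reached 1 FPKM (Eomes, Fcer1g, Tyrobp and Klrb1c) had a median log2 ratio of 0.13 in MyD88 T-KO and of 0.52 in IL6ra T-KO, with 3 of 4 above WT in each. Fcer1g, a receptor chain also of myeloid and mast cells, was at 2.06 FPKM in MyD88 T-KO against 1.47 FPKM in WT and at 3.35 FPKM in IL6ra T-KO against 1.51 FPKM in WT. Tyrobp, the gene of the adaptor DAP12, was at 2.97 FPKM in MyD88 T-KO against 2.46 FPKM in WT and at 3.23 FPKM in IL6ra T-KO against 2.52 FPKM in WT. Klre1 was at 0.307 FPKM in MyD88 T-KO against 0.0583 FPKM in WT and at 0.450 FPKM in IL6ra T-KO against 0.0598 FPKM in WT. The part of NK cells in the values of the receptor genes was not tested. The CD8 T cell marker Cd8a was at 5.02 FPKM in MyD88 T-KO against 2.28 FPKM in WT, and Cd8b1 at 16.9 FPKM against 9.16 FPKM in WT. The authors' deposited tables marked both as higher in MyD88 T-KO and neither in IL6ra T-KO. Cd8a and Cd8b1 lay above WT there, as did Klrd1 and Ctsw. Gzmb, Gzmk and Nkg7, also genes of the cytotoxic program, lay below WT, with log2 ratios of -0.55, -0.62 and -0.27. Gzma, Prf1, Klrc1 and Klrg1 lay near WT. The part of CD8 T cells in these values was not tested. In IL6ra T-KO Cd8a was at 2.96 FPKM against 2.33 FPKM in WT and Cd8b1 at 11.2 FPKM against 9.38 FPKM in WT, with log2 ratios of 0.25 and 0.23. The 10 genes ran there from 0.01 for Gzma to 1.80 for Klrd1. The part of CD8 T cells in their values was not tested in this comparison either.

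The gamma delta T cell marker Cd163l1 was at 3.02 FPKM in MyD88 T-KO against 4.81 FPKM in WT and at 0.338 FPKM in IL6ra T-KO against 4.93 FPKM in WT. Of the 4 markers of this list 3 reached 1 FPKM, and 2 of them lay below WT in each comparison. Blk, also a B cell gene, lay above it, at 5.63 FPKM in MyD88 T-KO against 2.72 FPKM in WT and at 4.43 FPKM in IL6ra T-KO against 2.79 FPKM in WT. The NKT cell factor gene Zbtb16 was at 0.478 FPKM in MyD88 T-KO against 0.506 FPKM in WT and at 0.448 FPKM in IL6ra T-KO against 0.518 FPKM in WT. The 9 B cell markers summed to 752 FPKM in MyD88 T-KO against 412 FPKM in WT and to 611 FPKM in IL6ra T-KO against 422 FPKM in WT. The 7 myeloid markers summed to 18.0 FPKM in MyD88 T-KO against 9.32 FPKM in WT and to 18.4 FPKM in IL6ra T-KO against 9.55 FPKM in WT. The authors' deposited tables marked 7 of the 9 B cell markers in MyD88 T-KO and 0 in IL6ra T-KO. They marked 1 of the 7 myeloid markers in each comparison. Blk was marked as higher in MyD88 T-KO and Cd163l1 as lower in IL6ra T-KO. The part of these other cells in the granule and receptor values was not tested.

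The genes whose pair of ratios lay nearest to the medians of the 10, by Euclidean distance over 2 ratios that share the WT library, were sought among 7376 genes with at least 5 FPKM in each table. They were Cxcl10, an interferon-induced chemokine gene, at a distance of 0.03, then Lpar6 (0.05), Dnase1l3 (0.10), Fut7 (0.10) and Ube2l6 (0.12). Cxcl10 was at 6.04 FPKM in MyD88 T-KO against 5.85 FPKM in WT, and in the library labelled IL6ra T-KO at 13.2 FPKM against 5.99 FPKM in WT. Fut7, which encodes a fucosyltransferase that makes selectin ligands, was at 8.84 FPKM in MyD88 T-KO against 8.99 FPKM in WT, and at 18.7 FPKM in IL6ra T-KO against 9.21 FPKM in WT.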

How the data were processed

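The 2 tables deposited by the authors set a knockout library beside WT, over 4 sheets each. Per the file headers, levels are FPKM, with the authors' log2 fold change (WT over knockout, turned round here), a test statistic (a score), and p-values and q-values of library against library. TopHat and Cufflinks on mm10 stand in the submitters' processing notes; no version, annotation or setting is given in the sources used here. Polyadenylated RNA was sequenced, per the labels' protocols. Where a name had several rows, the row with the highest mean FPKM was to be used. Starts were written with 1 added, since the RefSeq start was 1 above the table's for 10007 of 20568 symbols. Ratios used a pseudocount of 1 FPKM (Python 3.11.15, pandas 2.3.3, scipy 1.17.1). The calls were tried on simulated counts with changes well past the size rule and with counting error only. This did not cover differences near the rule, genes below the FPKM minimum in WT, or spread between mice. Depth came from FPKM steps of low genes, using GENCODE transcript lengths; knockout depth over WT, 0.955 and 1.10, is better set than the totals. No test, set test or p-value was computed. The genes and lists were chosen with earlier results of these data known. Genes named are the 10, Myd88, Il6ra and Cd4, and of each related list those past the size rule or up to 3 of the most abundant; Eomes, Klrc2, Fut7, Id2, Nfil3, Vamp7 and single markers were picked after their values were seen. Motif letters were also chosen then. Alternatives were pseudocounts of 0.1 and 5 FPKM, centring on all genes, no FPKM minimum and a log2 size of 0.5.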

Additional observations from a re-analysis of the deposited data

How the results depend on the processing

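No paired analysis was possible because each group had 1 library. In MyD88 T-KO the count of genes higher by the size rule changed from 0 to 1 without an FPKM minimum (Klrd1) and to 1 at a log2 size of 0.5, and the count lower changed from 0 to 2 at a log2 size of 0.5. In the library labelled IL6ra T-KO the count higher was 5 in each alternative except a pseudocount of 5 FPKM, where it was 2 (Nkg7 and Ctsw; Klrd1, Klrc1 and Klrg1 fell short of the size), and a log2 size of 0.5, where it was 6. A larger added value shrinks every ratio by construction, most for low genes. The count above 0 kept its value, 10 and 6, and the median of the 10 ran from 0.71 to 1.39 in IL6ra T-KO and from 0.03 to 0.10 in MyD88 T-KO. No value past the size rule changed sign. Of 57 single-gene values with an implied SE under the pseudocounts and the centring, 53 moved by less than it. The other 4 were Klrd1 in MyD88 T-KO (0.52) and in IL6ra T-KO (0.96) and Ctsw in IL6ra T-KO (1.04), with 5 FPKM added, and Klrk1 in IL6ra T-KO (1.90), with 0.1 FPKM added. Klrk1 in MyD88 T-KO has no implied SE, and its 3 values moved by less than the counting error of its fold. Depth limits Klrk1, Klrd1 and Gzma, which rest on few fragments.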

Other observations

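A few low genes of the related lists, chosen after their values were seen, differed in the library labelled IL6ra T-KO but stayed below the minimum of 5 FPKM. Ulbp1, which encodes a ligand of NKG2D, was at 1.99 FPKM in MyD88 T-KO against 0.978 FPKM in WT, and at 4.08 FPKM in IL6ra T-KO against 1.00 FPKM in WT, log2 ratios of 0.59 and 1.34. Slamf7, which encodes a SLAM family receptor of cytotoxic and plasma cells, was at 1.97 FPKM in MyD88 T-KO against 1.65 FPKM in WT, and at 4.51 FPKM in IL6ra T-KO against 1.69 FPKM in WT. Plasma cell markers were higher beside it there, with Igj at 42.2 FPKM in IL6ra T-KO against 8.16 FPKM in WT, and their part in the Slamf7 value was not tested. Il12rb2, the IL-12 receptor chain that marks Th1 cells, was at 1.24 FPKM in MyD88 T-KO against 1.10 FPKM in WT, and at 3.59 FPKM in IL6ra T-KO against 1.12 FPKM in WT.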
